A study of Rattus norvegicus with 7 samples.

Results

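The genes of the cytosolic ribosomal proteins were followed in alveolar type 2 cells, the surfactant-making epithelial cells of the lung alveolus, from rats with and without ethanol feeding. A probe set was taken when its only gene symbol on the platform began with Rpl or Rps and a digit or with Rplp, or was Rpsa or Fau. The genes of the S6 kinases (Rps6k) were left out, and each gene is given by its brightest probe set, judged by the mean over the 7 arrays. This gave 64 probe sets and 44 genes, out of 4736 genes that had a probe set of their own on this Affymetrix array. The 44 were 37 ribosomal proteins (26 of the 60S and 11 of the 40S subunit), 5 genes named as like a ribosomal protein (Rpl3l, Rpl19l4, Rplp1l3, Rpl36al1 and Rps27l) and 2 pseudogene symbols (Rps2-ps1 and Rps4x-ps9). A further 40 probe sets carried such a symbol together with other symbols, 38 of them with ribosomal family symbols only, and could not be named. Fau, Rplp1, Rplp2, Rps18, Rps27a and Rpl32 had no probe set of their own and were not analysed here. No filter on low values was applied, so all 44 genes were tested.

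All animals were male Sprague Dawley rats on a Lieber-DeCarli liquid diet for 6 weeks. In the 3 treated rats ethanol supplied 36% of calories, and the 4 control rats received the same calories without ethanol. The ages of the animals are not given in the sources used here. Alveolar type 2 cells were taken by immuno-adsorption, and total RNA of each animal was hybridised to 1 array, so p-values measure the spread between animals. The control animals are called control 1 to 4 and the ethanol-fed animals ethanol 2 to 4, after the replicate numbers in the labels. In the titles the controls are numbered before the ethanol-fed animals throughout, so diet and anything that follows this numbering cannot be told apart.

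The ribosome reads mRNA and joins amino acids into protein. Its small 40S subunit holds the decoding centre, its large 60S subunit forms the peptide bond and houses the tunnel through which the new chain leaves, and a stalk of acidic P proteins on the 60S subunit recruits elongation factors. Ribosomal protein mRNAs are among the most abundant of a cell, and as a class begin with a cytosine followed by a run of pyrimidines, the 5' terminal oligopyrimidine (TOP) motif, through which the mTOR pathway controls their translation. Alveolar type 2 cells translate large amounts of surfactant proteins.

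The start of the gene carries this class's signature, so sequences around the annotated start are shown. They cover the 5 genes with an entry that tracked the other members most closely from array to array (Rpl19, Rpl23, Rpl4, Rps23 and Rps3a). Rpl18, which tracked them too, and the stalk gene Rplp0 follow. The last 4 are genes whose chosen probe set did not track them (Rps15, Rpl41, Rpl3l and Rplp1l3). Each sequence is the 30 bases from 15 before the start to 15 from the start on. It runs 5' to 3' on the gene's own strand and is from RefSeq's promoter table of the rat assembly GRCr8. Capitals mark the longest run of C and T of at least 5 bases.
Rpl19, chr10:83519049-83519078, plus strand: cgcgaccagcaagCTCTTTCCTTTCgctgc
Rpl23, chr10:83272170-83272199, minus strand: actaaCTTCCTTTCTgactctttccggacg
Rpl4, chr8:73566462-73566491, plus strand: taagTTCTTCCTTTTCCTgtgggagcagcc
Rps23, chr2:23814502-23814531, plus strand: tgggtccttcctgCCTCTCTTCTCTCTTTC
Rps3a, chr2:173827028-173827057, minus strand: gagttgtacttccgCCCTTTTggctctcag
Rpl18, chr1:105325255-105325284, plus strand: tctggacctggtctagcaggaggcgccatc
Rplp0, chr12:46718376-46718405, minus strand: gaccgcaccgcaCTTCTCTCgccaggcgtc
Rps15, chr7:10068101-10068130, minus strand: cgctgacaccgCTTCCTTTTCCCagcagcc
Rpl41, chr7:1563483-1563512, minus strand: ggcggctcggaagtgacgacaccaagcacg
Rpl3l, chr10:14258431-14258460, plus strand: gacctctggtgcctggtggggaggTCCCTT
Rplp1l3, chr3:163216680-163216709, plus strand: cgcgtttcagttgacagcagaagcaacagc
The runs were 12 bases in Rpl19, 10 in Rpl23, 14 in Rpl4, 17 in Rps23, 7 in Rps3a and 8 in Rplp0, and Rpl18 had none of 5 or more. Among the genes whose chosen probe set did not track the others, Rps15 had a run of 12 bases, as did Rpl17 (not shown). Rpl41 and Rplp1l3 had no run of 5 in this window. By the chosen probe sets, long and short runs thus stood on both sides. Another Rps15 probe set, given below, had its lowest value in control 2, as most members did.

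The promoter table held 38 of the 44 genes, 34 of them ribosomal proteins. Rpl19l4, Rpl27, Rpl30, Rps29, Rps2-ps1 and Rps4x-ps9 had no entry. A run of at least 8 pyrimidines lay in the 30-base window of 21 of the 34 ribosomal proteins (61.8%), of 1 of 4 like genes, and of 11.4% of all 33469 promoters in the table. With runs of at least 5 the shares were 82.4% and 45.6%. Of the 3879 measured genes with an entry, 11.5% had a run of at least 8 and 43.7% one of at least 5. In the 300 bases from 250 before to 50 after the start, searched on both strands, CCGGAAG, the core of an ETS factor motif, was in 9 of the 34 (26.5%, against 8.75% of all promoters). AAGATGG, the core of a YY1 motif, was in 8 (23.5%, against 7.01%), and TATAAA, the TATA box, in 3 (8.82%, against 14.2%). Among the 3879 measured genes the shares were 12.3% for CCGGAAG, 7.37% for AAGATGG and 11.3% for TATAAA. The reverse complement of CCGGAAG begins with 5 pyrimidines, so the first motif and a run can overlap. AAGATGG contains ATG, and the searched bases run past the start, so a match can lie at a translation start codon. A match describes these letters only, and the table's start need not be the start used in these cells.

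Levels of the 44 genes were tested for a difference between the diets in a fit over all 8740 probe sets with limma, and p-values were adjusted over all of them (Benjamini-Hochberg). No ribosomal protein gene passed an adjusted p of 0.05: the count was 0 of 44, with a lowest adjusted p of 0.967, against 13 of 8740 probe sets (0.149%). At an unadjusted p under 0.05 there was 1 of 44 (2.27%), Rps29, against 4.58% of all probe sets. The 4 control and 3 ethanol values overlapped in all 44 genes, whereas they did not overlap in 5.24% of all probe sets. In these bulk isolates, fewer cells of a type and less RNA per cell cannot be told apart.

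Most members nevertheless had a somewhat higher mean in the ethanol-fed rats. The log2 difference, ethanol minus control, was above 0 in 32 of 44 genes (72.7%), against 46.6% of all 4736 genes, and the median was 0.12, against -0.014 over all genes. The differences ran from -0.25 (Rpl3l) to 0.44 (Rps29). Their median standard error was 0.232, against 0.148 over all probe sets, so a typical member's difference was smaller than its error. The 95% interval held 0 in 43 of 44 genes, and lay inside -1 to 1, a doubling either way, in 41. The intervals of Rps4x-ps9, Rpl4 and Rps6 reached beyond it, to 1.35, 1.09 and 1.07.

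**Figure D1:**
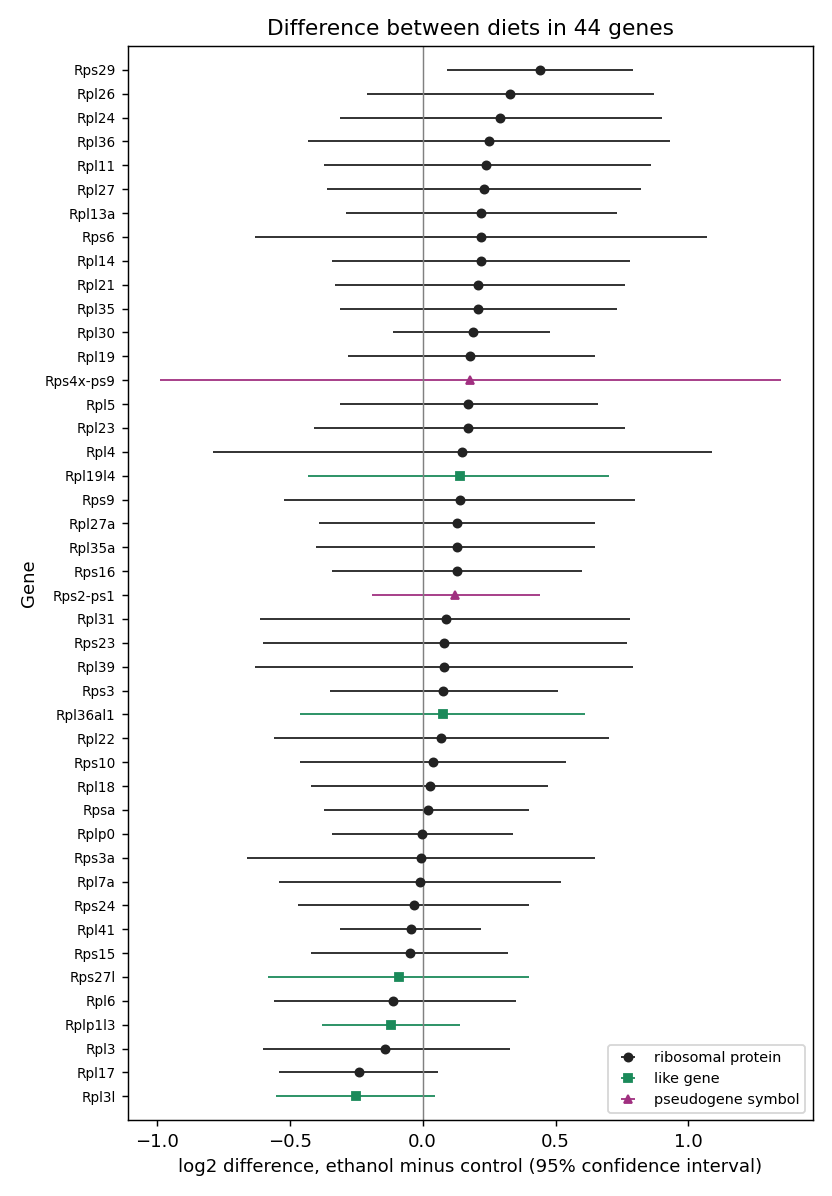
Log2 difference between diets (ethanol minus control, x axis) for each of 44 genes (y axis), as points with 95% confidence intervals from limma. Colours and shapes give ribosomal proteins, like genes and pseudogene symbols. The interval of Rps29 lies above 0, from 0.092 to 0.79, and the other 43 intervals hold 0.

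The median followed single animals. Without control 2 it was -0.045 and without ethanol 4 it was -0.06, with 15 of 44 genes higher in either case, while without ethanol 2, control 4 or control 1 it was 0.25, 0.22 or 0.19. It was 0.016 after quantile normalization, 0.03 with array weights, and -0.031 (18 of 44 higher) with the spread of each array as a covariate, an alternative added after seeing the data.

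**Figure D2:**
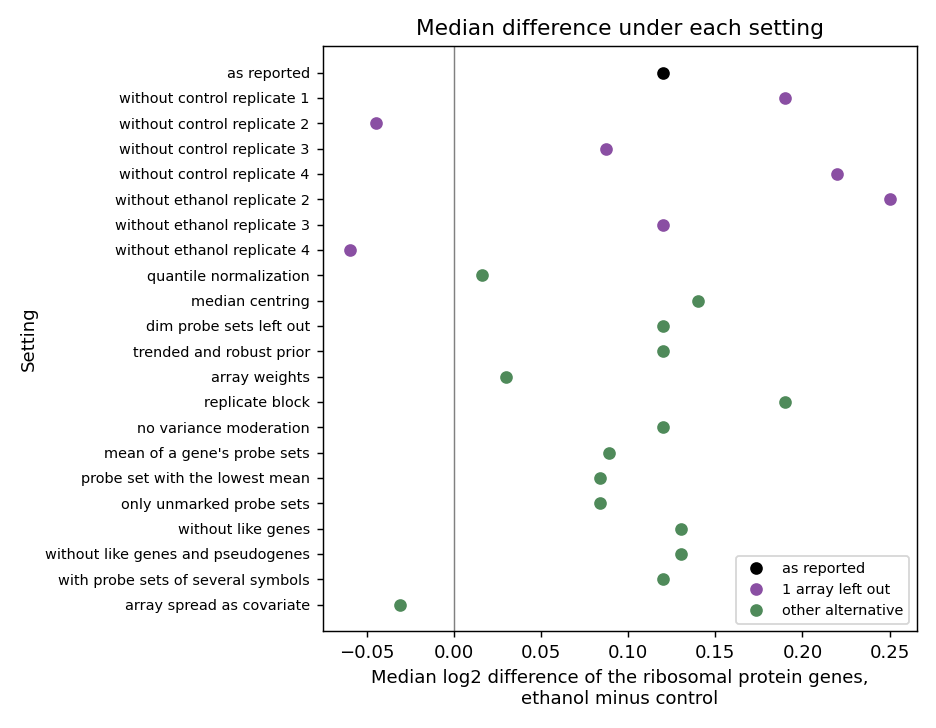
Median log2 difference of the ribosomal protein genes (ethanol minus control, x axis) as reported and under each alternative (y axis). Purple points leave out 1 array and green points change another choice. The median as reported was 0.12, and it falls below 0 without control 2, without ethanol 4 and with the array spread as a covariate.

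Within either group, these genes moved together from animal to animal. The median deviation of the 44 genes from their own means over the 7 arrays was 0.15, -0.5, -0.08 and 0.27 in controls 1 to 4 and -0.25, 0.03 and 0.44 in ethanol 2 to 4. Control 2 and ethanol 4 were thus the extremes, and the range among the 4 controls was wider than the difference between the diets. Control 2 had the lowest of the 7 values in 35 of 44 genes and ethanol 4 the highest in 26, with control 4 highest in 6. The 60S and 40S genes shared this order of arrays, at -0.52 and -0.44 in control 2 and 0.44 and 0.43 in ethanol 4. The within-group SD of a member was 0.374 at the median, from 0.0987 to 0.918, against 0.193 over all probe sets.

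Over the 7 arrays, after each group's mean was subtracted, pairs of members had a median correlation of 0.82 and a mean of 0.56. These points share the arrays and their scaling, and are a description only. With the mean of the other members, 34 of 44 genes correlated at 0.8 or more. Rpl19, Rpl23 and Rpl4 reached 1.00, and Rps23 and Rps3a 0.99. The values were under 0.3 for 5 genes, namely Rpl17 (0.16), Rpl41 (-0.10), Rplp1l3 (-0.65), Rps15 (-0.75) and Rpl3l (-0.81). Of these 5, Rpl41, Rplp1l3, Rps15 and Rpl3l had their highest value in control 2, where most members had their lowest. Rplp1l3 and Rpl17 were dim, with means of 4.02 and 4.23 against a median of 4.59 over all probe sets. The means were 5.53 for Rpl3l, 7.37 for Rpl41 and 8.32 for Rps15, against a median of 7.92 over the members. The Rps15 value holds for the chosen probe set only, as described below.

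**Figure D3:**
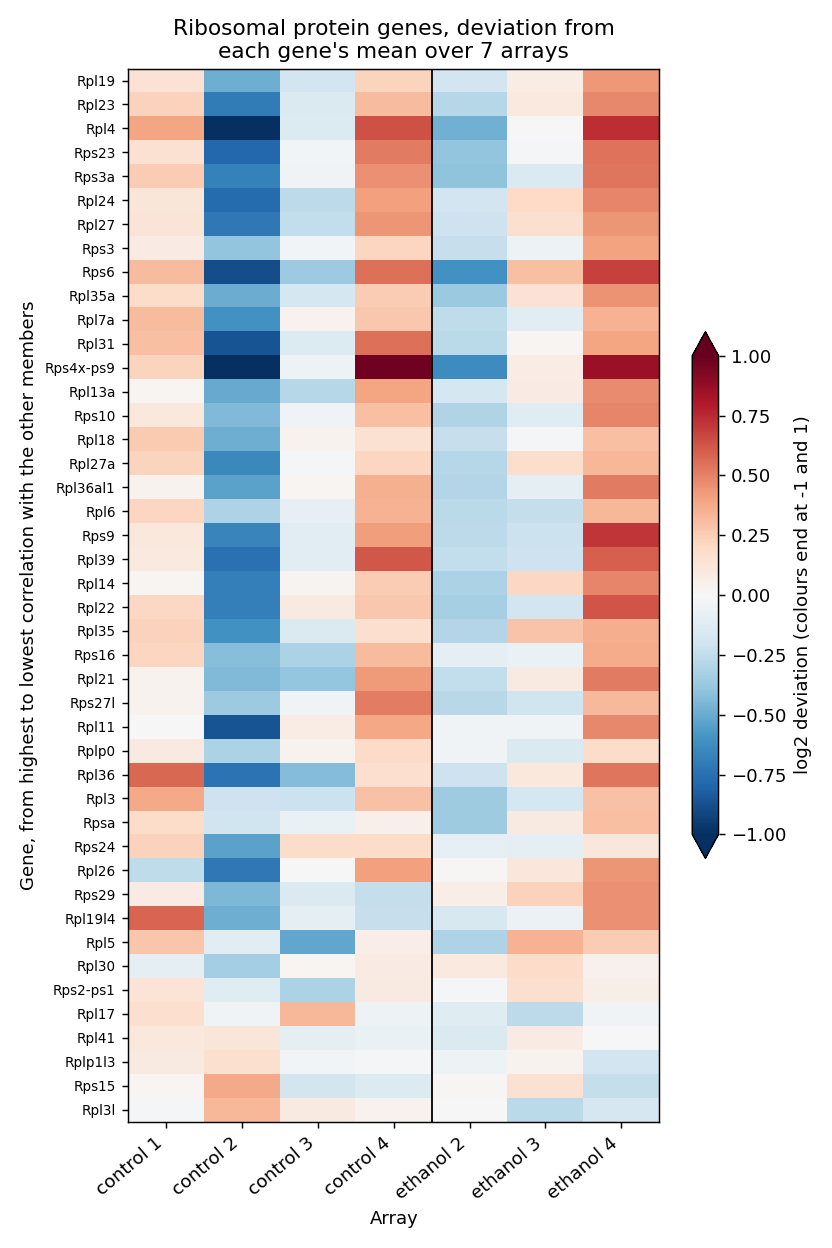
Log2 deviation of each gene (rows) from its own mean over the 7 arrays (columns, controls left of the line), with blue below and red above that mean. Rows run from the highest to the lowest correlation with the other members. Control 2 is blue and ethanol 4 red in most rows, and the pattern is lost in the last rows (Rpl17, Rpl41, Rplp1l3, Rps15 and Rpl3l).

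The same order of arrays appeared in other bright signals. The 456 other probe sets with a mean of at least 7 had median deviations of 0.06, -0.3, -0.05 and 0.13 in controls 1 to 4 and -0.12, 0.02 and 0.23 in ethanol 2 to 4. Of them 60.1% were higher with ethanol, with a median log2 difference of 0.045. The SD of all tested values on an array was 1.401, 1.285, 1.363 and 1.437 in the controls and 1.337, 1.388 and 1.459 with ethanol, and thus ranked the 7 arrays as the ribosomal genes did. This SD was 1.37 ± 0.0647 in the controls (SD, n = 4) and 1.39 ± 0.0616 with ethanol (SD, n = 3; exact two-sided permutation p = 0.686). The 38 ribosomal family probe sets with several symbols, which the rule did not use, gave 0.15, -0.5, -0.1 and 0.32, and -0.28, 0.01 and 0.42. The part of the array spread in these differences between diets was not tested beyond the covariate fit.

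**Figure D4:**
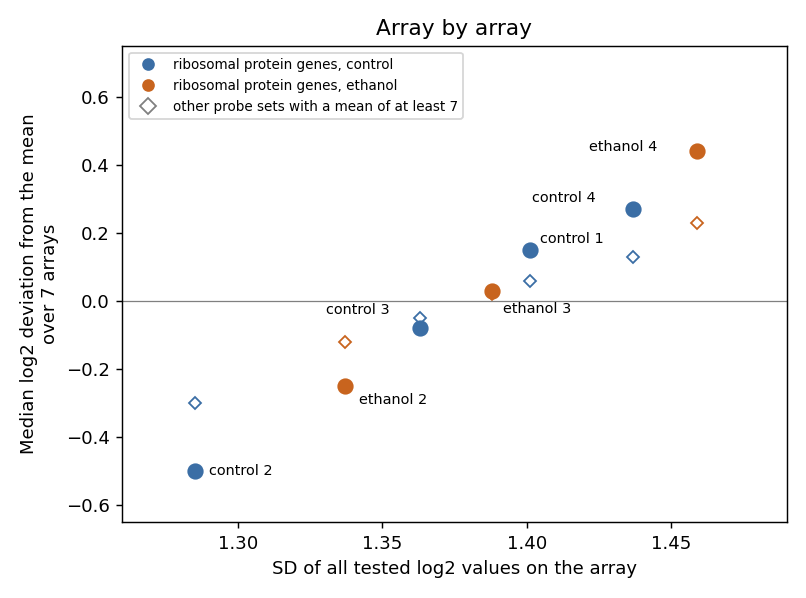
Median log2 deviation of the ribosomal protein genes (filled circles) and of 456 other probe sets with a mean of at least 7 (open diamonds) on each array (y axis) against the SD of all tested log2 values on that array (x axis). Blue is control and orange ethanol. Both sets run from control 2, at -0.5 and -0.3, to ethanol 4, at 0.44 and 0.23.

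The label of the cells was checked against surfactant and other markers. Sftpc, the surfactant protein of alveolar type 2 cells, read 12.41 to 12.84, and 5 of 10 listed type 2 markers were measured, with 2 higher with ethanol, a median log2 difference of -0.219 and 0 called. The median deviations of these type 2 markers were 0.12, -0.1, 0 and 0.06 in the controls and -0.3, 0.07 and 0.29 with ethanol. The median deviations of the 3 measured club cell markers of 6 (Scgb1a1, Cyp2f4 and Cyp4b1) were 0.57, -0.72, -0.34 and 0.03 in the controls and -0.14, -0.08 and 0.46 with ethanol, with list means of 7.17 to 8.36 and 7.67 to 8.04. This median was lowest in control 2, as were Cyp2f4 and Cyp4b1, whereas Scgb1a1 was lowest in control 3. The list median of the 12 mesenchyme markers, all measured, ran the other way, at 0, 0.28, 0.17 and -0.2 in the controls. With ethanol it was -0.06, -0.12 and -0.14. Of the 12 markers 3 were higher with ethanol, and list means were 5.22 to 5.61 in the controls and 5.22 to 5.38 with ethanol. Col1a2, Pdgfra, Dcn, Lum and Thy1 were highest in control 2, whereas Pdgfrb was lowest there, at 4.5. Sparc read 5.81 to 6.53 in the controls and 6.9 to 7.69 with ethanol. The 4 measured red cell markers of 8 had list median deviations of 0.57 in ethanol 2 and -0.48 in ethanol 3. The globins Hbb (8.33 and 5.03) and Hbb-b1 (7.71 and 5.79) set these arrays apart. Alas2 (6.11 and 5.93) and Slc4a1 (6.14 and 6.01) differed little between them. The 4 measured type 1 markers of 6 had their highest list median in ethanol 2 (0.33). The part of these lists in the result was not tested. List median deviations stayed within -0.25 to 0.25 on all arrays for macrophage (5 of 13 measured) and endothelial markers (4 of 8). The same held for T and natural killer cell markers (11 of 13). Single markers ranged wider, as did Lyz2 of the macrophage list, from 11.21 to 12.07. The other macrophage markers read 2.35 to 6.43, and which cells gave the Lyz2 signal was not tested. The 3' minus 5' signal of actin, a sign of RNA integrity, was 0.76 ± 0.175 in the controls (SD, n = 4) and 0.83 ± 0.245 with ethanol (SD, n = 3; exact two-sided permutation p = 0.629). Ethanol 4 had the highest of the 7 values for actin (1.1) and for GAPDH (0.42), and the part of this in the result was not tested.

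Among the 60S genes, 22 of 30 had a positive difference, with a median of 0.13 and 0 called. The proteins around the exit of the peptide tunnel were measured for 7 of 8 listed genes, of which 6 were higher, with a median of 0.15. Rpl26, one of these tunnel exit proteins, read 8.23, 7.77, 8.48 and 8.9 in the controls and 8.5, 8.6 and 8.93 with ethanol. Its groups overlapped through control 4, and the difference was 0.33 (SE 0.241). The probe set named for Rpl17, another protein of the exit, went the other way. It read 4.4, 4.19, 4.56 and 4.18 against 4.11, 3.97 and 4.19, a difference of -0.24 (SE 0.134). Ethanol 4 stood level with control 2 and just above control 4 there, and the other ethanol values were below all controls. The only Rpl17 probe set was dim, with a mean of 4.23 against a median of 4.59 over all probe sets. It correlated with the mean of the other members at only 0.16. The probe sets numbered next to it carry the symbol Slc34a1, and whether it reads Rpl17 mRNA was not tested. Rpl19, one of the 3 members closest to the common profile, read 8.77, 8.14, 8.44 and 8.85 in the controls and 8.44, 8.7 and 9.06 with ethanol, a difference of 0.18 (SE 0.205). Rpl4 had the widest spread of the 60S ribosomal proteins, at 7.48, 5.92, 6.95 and 7.72 against 6.6, 7.09 and 7.82, and Rpl39 read 7.11, 6.27, 6.9 and 7.64 against 6.77, 6.81 and 7.61. In both genes control 2 was lowest and the groups overlapped widely, with differences of 0.15 (SE 0.418) and 0.08 (SE 0.314).

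Rpl5 and Rpl11 form a particle with the 5S ribosomal RNA that can bind and inhibit Mdm2, the ubiquitin ligase of p53. Rpl11 read 9.25, 8.39, 9.33 and 9.64 in the controls and 9.22, 9.22 and 9.74 with ethanol, a difference of 0.24 (SE 0.273). Rpl5 read 3.33, 2.94, 2.54 and 3.12 against 2.75, 3.4 and 3.31, a difference of 0.17 (SE 0.216). Both genes overlapped between the diets, and the lowest array was control 2 for Rpl11 and control 3 for Rpl5. Without control 2 the difference of Rpl11 was -0.008. The Rpl5 probe set was dim, since the table's values ran from 1.65 to 12.84.

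Rplp0 anchors the P stalk and, like Rpl13a, often serves as a reference gene in RNA measurements. Rplp0 read 10.67, 10.26, 10.61 and 10.77 in the controls and 10.54, 10.43 and 10.76 with ethanol. Its means were 10.57 ± 0.223 (SD, n = 4) and 10.57 ± 0.168 (SD, n = 3), and the 95% interval of the difference ran from -0.34 to 0.34. Rpl13a read 8.07, 7.54, 7.76 and 8.44 against 7.87, 8.13 and 8.52, a difference of 0.22 (SE 0.228), and both diets spanned much the same range. A second Rpl13a probe set gave -0.047. As the 4 controls of Rpl13a spanned 7.54 to 8.44, the spread within a diet exceeded the difference between the diets.

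Of the other large subunit genes, Rpl24, Rpl30, Rpl3, Rpl6 and Rpl7a showed both directions. Rpl24 read 8.72, 7.83, 8.34 and 9.01 in the controls and 8.41, 8.8 and 9.09 with ethanol, a difference of 0.29 (SE 0.27), and its second probe set gave -0.18. Rpl30 read 4.56, 4.31, 4.67 and 4.73 against 4.75, 4.83 and 4.69, a difference of 0.19 (SE 0.131). Only ethanol 4 lay among the controls of Rpl30, below control 4. Rpl3, which lies near the peptidyl transferase centre, read 9.17, 8.58, 8.57 and 9.08 against 8.43, 8.61 and 9.08, a difference of -0.14 (SE 0.208). Rpl6 read 9.53, 9.01, 9.24 and 9.67 against 9.05, 9.08 and 9.65, a difference of -0.11 (SE 0.203). In Rpl3 and Rpl6 the ethanol values lay mostly within the control range. Rpl7a read 9.86, 8.94, 9.58 and 9.81 against 9.29, 9.44 and 9.89, a difference of -0.0093 (SE 0.236).

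Among the 40S genes, 10 of 14 had a positive difference, with a median of 0.079 and 0 called. Of the listed proteins of the 40S head 4 of 5 measured were higher (median 0.077), and of the body and platform 4 of 6 (median 0.05). Rps29, a small zinc-binding protein of the 40S head, had the greatest difference of all 44 genes. It read 10, 9.47, 9.78 and 9.68 in the controls and 9.99, 10.15 and 10.38 with ethanol. The 2 groups overlapped only because control 1 lay just above ethanol 2. The ethanol mean was 10.17 ± 0.199 (SD, n = 3) and the control mean 9.73 ± 0.22 (SD, n = 4), a log2 difference of 0.44 (SE 0.156, 95% interval 0.092 to 0.79), or 1.36-fold. The unadjusted limma p was 0.0186 and the adjusted p 0.967. A second Rps29 probe set read 9.88, 8.95, 9.28 and 10.1 against 9.53, 9.94 and 10.08, with the highest value in a control and a difference of 0.30 (SE 0.269). With 1 array left out the difference of the first probe set ran from 0.34, without ethanol 4, to 0.54, without ethanol 2. With the array spread as a covariate it was 0.38.

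Rps6, the phosphorylation target of the S6 kinases, read 7.57, 6.37, 6.89 and 7.8 in the controls and 6.65, 7.55 and 7.94 with ethanol, a difference of 0.22 (SE 0.379). Rpsa, a 40S protein also known as a laminin receptor, read 9.06, 8.68, 8.81 and 8.93 against 8.52, 8.97 and 9.18, a difference of 0.019 (SE 0.172). In both genes the values of either diet lay on both sides of the other's mean. Rps3, which lines the mRNA entry channel, read 10.31, 9.83, 10.2 and 10.44 against 10, 10.18 and 10.63, a difference of 0.077 (SE 0.191). Rps15, a protein of the 40S head near the decoding site, read 8.34, 8.7, 8.14 and 8.18 against 8.33, 8.47 and 8.08, a difference of -0.048 (SE 0.164). Control 2 was the highest array for this Rps15 probe set. Another Rps15 probe set read 8.39, 7.53, 7.89 and 8.4 against 8.03, 8.16 and 8.69, with control 2 lowest as in most members. The lowest correlation between the 3 Rps15 probe sets was -0.71, so the departure of Rps15 from the common profile held for the chosen probe set and not for that second one.

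**Figure D5:**
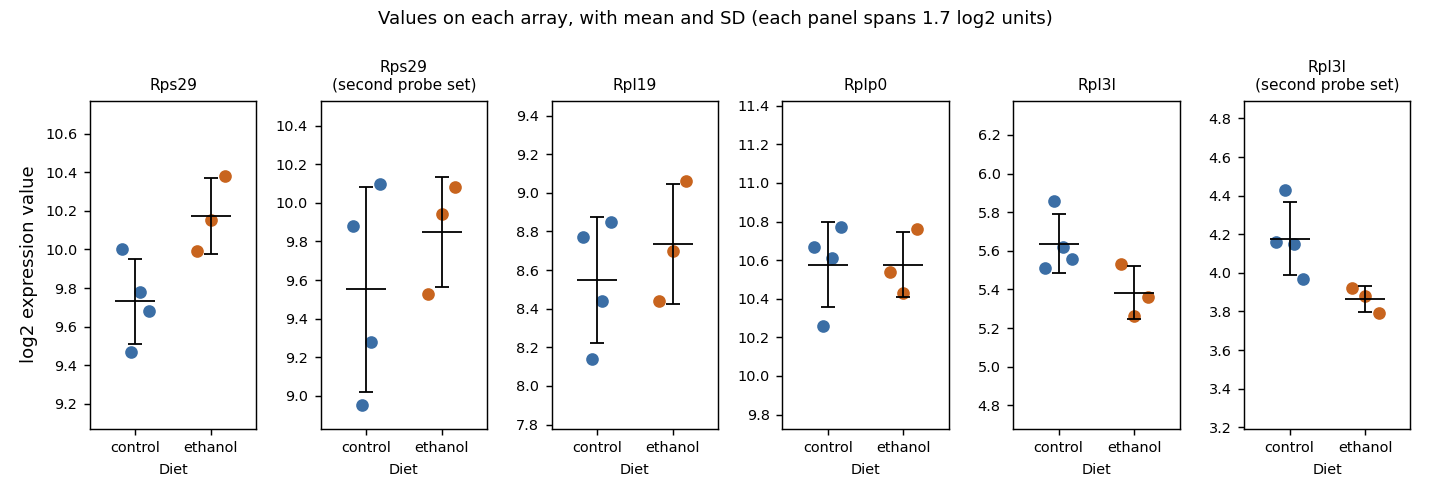
Log2 expression values (y axis) on each array by diet (x axis) for Rps29 and its second probe set, Rpl19, Rplp0, and Rpl3l and its second probe set. Points are arrays, with mean and SD as bars, and each panel spans the same height. The ethanol values of Rps29 reach 10.38, above all controls, while those of the second Rpl3l probe set, at most 3.92, lie below its lowest control, 3.97.

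Mutations in a set of ribosomal protein genes cause Diamond-Blackfan anaemia, a failure of red cell production. Of 22 such genes listed 11 were measured, 10 of them with a positive difference and a median of 0.17, and 0 were called. Rps29, Rpl26, Rpl5 and Rpl11, described above, are among these 11.

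Of the like genes 2 of 5 were higher with ethanol and the median was -0.088, against 28 of 37 and 0.13 for the ribosomal proteins. Rpl3l, the muscle counterpart of Rpl3, read 5.51, 5.86, 5.62 and 5.56 in the controls and 5.53, 5.26 and 5.36 with ethanol. Ethanol 2 lay just above control 1, and the difference was -0.25 (SE 0.132). Its unadjusted limma p was 0.0874 and the adjusted p 0.967. A second Rpl3l probe set read 4.16, 4.43, 4.15 and 3.97 against 3.92, 3.88 and 3.79, a difference of -0.31 (SE 0.133). It was the 1 probe set of the 64 whose groups did not overlap, and its limma p was 0.0413 unadjusted and 0.967 adjusted. Rps27l, the p53-inducible relative of Rps27, read 5.46, 5.06, 5.39 and 5.94 against 5.15, 5.23 and 5.75, a difference of -0.088 (SE 0.218). Rplp1l3, named for the stalk protein Rplp1, read 4.11, 4.18, 3.99 and 4 against 3.97, 4.05 and 3.83, a difference of -0.12 (SE 0.116). Both overlapped between the diets. Rpl19l4 read 4.58, 3.51, 3.91 and 3.77 against 3.84, 3.94 and 4.46, with the highest value in control 1 and a difference of 0.14 (SE 0.251).

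The pseudogene symbols both had positive differences. Rps4x-ps9 had the widest within-group spread of all members, 0.918, at 5.25, 3.57, 4.98 and 6 in the controls and 4.4, 5.1 and 5.89 with ethanol. It followed the common profile with a correlation of 0.97. Rps2-ps1 read 4.17, 3.91, 3.71 and 4.12 against 4.02, 4.19 and 4.09, a difference of 0.12 (SE 0.14). Ribosomal protein genes have many processed copies of near-identical sequence, and a probe set of such a copy may read the parent's mRNA, so the source of these signals is uncertain. In all, 30 of the 64 probe sets carry a mark in their name (such as s, g, i or r before at) for probes chosen under other rules than usual, some of which may read several transcripts.

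Where a gene had several probe sets, they mostly pointed one way. Of 17 such genes 12 had probe sets of 1 sign and 5 of both (Rpl24, Rpl3, Rps15, Rpl13a and Rpl23). The widest gap between probe sets of a gene was 0.47, in Rpl24. The 4 probe sets of Rpl21 all lay above 0, from 0.15 to 0.21, although their lowest pairwise correlation within groups was -0.09. Over all 64 probe sets 46 were higher and 18 lower, 2 had an unadjusted p under 0.05, and 0 were called.

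The gene lists for ribosome assembly, initiation and elongation more often had negative than positive differences, and 0 of their genes were called. All 4736 genes leaned the same way, with 46.6% higher with ethanol. The lists hold regulators too: Eif2ak1, Eif2ak2, Eif2ak3 and Eif4ebp1 restrain initiation, and Eef2k restrains elongation. Of the ribosome assembly and nucleolus genes 3 of 16 (18.8%) were higher with ethanol, with a median of -0.14. Mrto4, an assembly factor of the 60S subunit related to Rplp0, read 5.77, 5.85, 6.01 and 5.86 in the controls and 5.1, 5.51 and 5.73 with ethanol. Its groups did not overlap, and the difference was -0.43 (SE 0.158), with a limma p of 0.0225 unadjusted and 0.967 adjusted. Of the initiation list 6 of 19 (31.6%) were higher (median -0.069). Eif3b, a subunit of the factor that prepares the 40S subunit, read 7.9, 7.88, 8.04 and 7.91 against 7.61, 7.75 and 7.73, again without overlap, a difference of -0.24 (SE 0.11, limma adjusted p = 0.967). Eif2s1, the alpha subunit of eIF2, had a difference of -0.3 (SE 0.136). Of the elongation list 2 of 5 (40%) were higher (median -0.07), near the share over all genes.

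The TOP class beyond the ribosome and the mTOR pathway divided evenly. Of 8 other measured TOP mRNAs 4 were higher, with a median of -0.034. They ranged from -0.21 for Nap1l1, a histone chaperone, whose 3 ethanol values (5.75 to 5.89) lay below the controls (5.96 to 6.11), to 0.76 (SE 0.502) for Vim, the intermediate filament gene. The other Nap1l1 probe sets gave 0.18 (SE 0.341) and -0.10 (SE 0.147). Vim read 6.08, 5.03, 5.6 and 7.52 in the controls and 7.21, 6.24 and 7.0 with ethanol, so the groups overlapped. Of the S6 kinase and mTOR list 9 of 17 were higher, with a median of 0.014. The list also counts Pdk1, by its symbol a pyruvate dehydrogenase kinase outside this pathway. The lowest unadjusted p belonged to Pdpk1, a kinase upstream of the S6 kinases, at -0.36 (SE 0.195). Whether these lists differ from the ribosomal proteins was not tested.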

How the data were processed

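The authors deposited a table of 8799 probe sets by 7 arrays. The deposited values, taken as log2 expression because they span 1.65 to 12.84, had been normalized by the authors to a common scale, with array means of 4.758 to 4.76. The methods of probe summary, background correction and normalization are not given in the sources used here, and a scale fixed across arrays can move bright probe sets together. The number of arrays limits the precision.

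The 59 array controls were left out. Of 8740 probe sets, 7006 had 1 symbol in the platform annotation, 308 several and 1426 none; 43 of the 44 members matched RefSeq by Entrez identifier (Rps9 did not), and 0 symbols changed. limma 3.58.1 in R 4.3.3 compared the diets, two-sided, with Benjamini-Hochberg adjustment over 8740. Array measures were tested over all 35 divisions of the arrays with SciPy 1.17.1, where the smallest p is 0.0571. The models were tested on simulated data.

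The members, gene lists and tests were chosen with earlier results of these data known. Values by array are given for the members with the 6 lowest p in each direction, the 5 brightest and 4 dimmest, those of the stalk, 5S and reference lists, Rpsa and Rps6, the 4 with the widest spread and the 4 whose probe sets differed most, and for up to 2 genes of each other list by lowest p. The alternatives were quantile normalization, median centring, leaving out dim probe sets, a trended and robust prior, array weights, a replicate block, no moderation, each array left out, other choices of the probe set, and leaving out the like genes. The array spread as a covariate, leaving out pseudogenes too, and adding probe sets with several symbols came after seeing the data. Same-numbered control and ethanol arrays deviated together at correlations of 0.43, 0.07 and 0.43 for numbers 2, 3 and 4. Differently numbered arrays ran from -0.53 (control 2 with ethanol 4) to 0.35 (control 1 with ethanol 4). The main fit did not take the numbers as pairs, and the replicate block was the alternative that used them. Whether the numbers mark pairs was not settled by these values.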

Additional observations from a re-analysis of the deposited data

Results flagged for a closer look

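Rps24, a 40S protein mutated in some patients with Diamond-Blackfan anaemia, had 1 control far from the others: control 2 read 4.22, while the other controls read 4.99, 4.94 and 4.94. Its ethanol values were 4.68, 4.67 and 4.87, and the difference between diets was -0.032 (SE 0.193). This was the only one of 46 measures, the 44 genes among them, in which a control stood this far out, and chance alone gives about 1 in 20. Control 2 was also the lowest array for 35 of the 44 genes.

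The array's control probe set for 5S ribosomal RNA, which no comparison above used, read slightly higher in the ethanol-fed rats. Its values were 5.5, 5.6, 5.57 and 5.56 in the controls and 5.6, 5.66 and 5.64 with ethanol, with means of 5.56 ± 0.0412 (SD, n = 4) and 5.63 ± 0.0264 (SD, n = 3). The probe set was flagged because all its ethanol values, before rounding, lay above all its controls. That rule by itself fixes the exact two-sided permutation p at 0.0571, the smallest this design allows, so the p adds no support. It was 0.285 after Benjamini-Hochberg adjustment over 5 array measures, and this probe set was not among the measures planned.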

How the results depend on the processing

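The count of ribosomal genes called was 0 under all 21 alternatives. The lowest adjusted limma p was 0.275, for the probe set named for Rpl17 with array weights. The count at an unadjusted p under 0.05, 1 as reported, was 0 with a trended and robust prior or only unmarked probe sets, 3 with array weights, 2 with probe sets of several symbols and 0 to 2 with 1 array left out. The count of higher genes, 32 as reported, was 18 with the array spread as a covariate, 59 of 82 with probe sets of several symbols, and 15 to 39 with 1 array left out. The probe sets called, 13 as reported, were 0 without variance moderation, 1 with the mean of each gene's probe sets (4736 tested) and 2 with unmarked probe sets (5972 tested). The replicate block gave 23 probe sets called, 6 ribosomal genes at an unadjusted p under 0.05, 36 higher and a median of 0.19. Number 1 had a control array only, so control 1 did not enter the difference in that fit. Leaving control 1 out without the block also gave 36 higher and a median of 0.19. That fit had 14 probe sets called and 1 ribosomal gene at an unadjusted limma p under 0.05. Ethanol 2 and ethanol 4 correlated best with the same-numbered control (0.43 each). Ethanol 3 correlated better with control 1 (0.10) than with control 3 (0.07).

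Of 25 genes given by array, 9 kept their direction under every alternative run (Rpl17, Rpl19, Rpl26, Rpl30, Rpl3l, Rpl5, Rplp1l3, Rps2-ps1 and Rps29). With the array spread as a covariate the difference turned to -0.11 for Rpl39, -0.11 for Rpl4, 0.017 for Rps15, -0.028 for Rps3, -0.15 for Rps4x-ps9, -0.016 for Rps6 and -0.059 for Rpsa. Array weights gave -0.089 for Rpl39, 0.13 for Rps15 and -0.0046 for Rps3, and quantile normalization -0.06 for Rps3 and -0.061 for Rpsa. Median centring gave 0.0031 for Rpl7a and 0.01 for Rplp0, and the replicate block 0.094 for Rpl7a and 0.028 for Rplp0. The dimmest probe set of a gene gave -0.047 for Rpl13a, -0.18 for Rpl24 (also the unmarked one) and 0.18 for Rpl3, and the mean over all probe sets of a gene 0.023 for Rpl3 and 0.051 for Rps15. With 1 array left out the range was -0.008 to 0.41 for Rpl11, -0.054 to 0.35 for Rpl19l4, -0.32 to 0.0012 for Rpl3, -0.2 to 0.3 for Rpl39, -0.21 to 0.44 for Rpl4, -0.3 to 0.00076 for Rpl6, -0.21 to 0.12 for Rpl7a and -0.11 to 0.071 for Rplp0. It was -0.13 to 0.071 for Rps15, -0.27 to 0.072 for Rps27l, -0.1 to 0.21 for Rps3, -0.28 to 0.55 for Rps4x-ps9, -0.061 to 0.58 for Rps6 and -0.13 to 0.2 for Rpsa. The cause of these changes was not tested. Signal over background is unknown, since no detection calls were used.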

Other observations

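Of the ribosomal proteins of the mitochondrion, which are separate genes from the cytosolic set, 5 of 14 (35.7%) were higher with ethanol. The share over all 4736 genes was 46.6%. The median log2 difference of the 14 was -0.064, against -0.014 over all genes, and 0 were called by limma. Mrps14, of the small mitochondrial subunit, read 4.77, 5.51, 4.9 and 4.49 in the controls and 4.47, 4.62 and 4.57 with ethanol, a difference of -0.37 (SE 0.213). Mrpl50, of the large mitochondrial subunit, read 4.08, 4.1, 4.12 and 3.87 against 3.9, 3.74 and 3.84, a difference of -0.22 (SE 0.116). Control 2 had the highest Mrps14 value, where most cytosolic members had their lowest, and both genes overlapped between the diets.

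Of the aminoacyl-tRNA synthetases, which charge tRNAs with their amino acids, 2 of 5 were higher and 0 called, with a median of -0.026. Tars1, the threonine enzyme, read 5.69, 5.02, 5.7 and 5.72 in the controls and 4.68, 5.2 and 5.26 with ethanol, a difference of -0.49 (SE 0.211). Its limma p was 0.0448 unadjusted and 0.967 adjusted. Control 2 lay among its ethanol values. Kars1, the lysine enzyme, had a difference of 0.088 (SE 0.168).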
